A study of Rattus norvegicus with 16 samples.

Results

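The growth hormone pathway was followed through 8 genes in the liver of male Lewis rats at 3, 9, 12, 18 and 24 months of age: Ghr, Stat5a, Stat5b, Socs2, Cish, Igf1, Igfals and Igfbp3. They were read through every probe that carried their name on the array, 14 of 41012 probes (8 of 35071 gene names): 3 for Ghr, 4 for Igf1, 2 for Igfbp3 and 1 for each of the other genes. Each sample was hybridised to a one-colour Agilent whole-genome rat array, with 3 arrays at 3, 9, 12 and 18 months and 4 at 24 months. The inbred rats carried no engineered allele or treatment that the labels name, lived under pathogen-free conditions on a 12-h cycle of light and dark and ate and drank freely. The labels do not say whether each sample came from a separate animal or at which hour the livers were taken, so p-values measure the spread between these samples, which may be technical. The labelling kit named in the labels is one for microRNA, although these probes read mRNA.

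Growth hormone from the pituitary binds the receptor encoded by Ghr on hepatocytes, and the kinase JAK2 then phosphorylates the transcription factors STAT5A and STAT5B. STAT5 dimers bind DNA at the palindrome TTCNNNGAA and drive Igf1, Igfals, Socs2 and Cish, while the SOCS2 and CIS proteins (the latter encoded by Cish) dampen the same receptor in a feedback loop. IGF1 circulates in a complex with IGFBP3 and the acid-labile subunit encoded by Igfals. Male rats release growth hormone in high pulses separated by long troughs, and this rhythm sets many sex differences of liver mRNA.

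Igf1 has alternative leader exons, and the sequences of 2 probes show which leader each one reads. The last 30 bases of both probes are given 5′ to 3′, with the bases of the shared exon 3 in capitals. On build rn4 the first spans chr7:24533810-24537048 and the second chr7:24531970-24537063, both on the plus strand, so each crosses an intron.
A_44_P421499, leader exon 2 joined to exon 3: ggacgtaccaaaatgagcgcacctccaATA
A_44_P126021, leader exon 1 joined to exon 3: gacttcttgaagATAAAGATACACATCATG
The first probe had 3 bases in exon 3 and the second 18, and they are named below by the leader exon they hold. Since 57 of the 60 bases of the first lie in leader exon 2, it may not need the junction. Whether it also read RNA not spliced there was not tested. Probe A_44_P421502 lies immediately upstream of the first, at chr7:24533750-24533809, and A_44_P366723 lies downstream at chr7:24604715-24604774.

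The Ghr, Stat5b and Socs2 probes are shown because the results differ by where a probe lies in its mRNA, or rest on 1 probe alone. All 4 lie on the minus strand of rn4 and in coding sequence. In order, they lie at chr2:52524230-52524289, chr2:52498209-52498268, chr10:89722209-89722268 and chr7:32605827-32605886.
Ghr A_44_P320858, hormone-binding part: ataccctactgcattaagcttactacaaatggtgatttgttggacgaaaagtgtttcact
Ghr A_44_P360845, intracellular part: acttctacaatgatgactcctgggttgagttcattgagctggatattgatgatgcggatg
Stat5b A_43_P12209: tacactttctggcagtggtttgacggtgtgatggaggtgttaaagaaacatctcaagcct
Socs2 A_42_P543004: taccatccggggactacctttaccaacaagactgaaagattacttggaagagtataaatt
Stat5a and Stat5b are near-identical neighbours on chromosome 10, and whether the Stat5b probe also read Stat5a mRNA was not tested.

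The Cish promoter is shown because it alone among the 7 promoter windows searched carried the STAT5 palindrome. RefSeq promoters (build GRCr8, from 250 bases before to 50 after the start) were listed for 7 of the 8 genes, all but Socs2. The 250 bases before the Cish start, chr8:116850719-116850968 on the plus strand, are given with the matches in capitals.
Cish: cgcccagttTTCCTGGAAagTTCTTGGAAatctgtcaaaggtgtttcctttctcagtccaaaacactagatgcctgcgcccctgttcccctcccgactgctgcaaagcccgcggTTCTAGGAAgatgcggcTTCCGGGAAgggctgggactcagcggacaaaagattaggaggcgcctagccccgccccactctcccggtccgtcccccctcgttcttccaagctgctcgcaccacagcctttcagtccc
The 4 matches to TTCNNNGAA, a motif that reads the same on both strands, began 241, 230, 136 and 119 bases before the start. The first pair was 2 bases apart and the second 8. Of all 33469 promoters of this length, 8.87% held at least 1 match and 0.547% at least 2. No match lay in the windows of Ghr, Stat5a, Stat5b, Igf1, Igfals and Igfbp3. The Igf1 window is that of leader exon 2, since probe A_44_P421499 lies at -11 to 45 counted from its start. The start of leader exon 1 was not searched. A match describes the letters in this window and does not show binding.

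Each array had 52.5% to 65.2% of its probes well above background and no saturated spot. All 14 probes lay well above background on every array, except that of Socs2, which did on 15 of 16. All 14 hepatocyte markers were measured, with a summed signal of 4657 to 5335 times the 75th percentile at 3 months and 3364 to 5599 at 24 months, and none of 7 adipose and muscle markers was. The mean correlation with arrays of the same age was lowest for 12-month array 2 (0.965), 24-month array 3 (0.9745) and 24-month array 4 (0.9751). Only the first was set off from the rest, since 12-month array 3 came next at 0.976 and the highest was 0.997. Without these 3 arrays of lowest correlation, 45 of the 46 called differences below stayed past the threshold. Since the arrays were picked for lying apart from their age, leaving them out narrows the spread within an age. Over the 5 ages 14427 of all probes then passed, against 9116, so the kept calls are no test of robustness. Arrays of 3 months lay on slide 1, together with 1 of 9 months. Slide 2 held the other 2 of 9 months and 1 of 12 months, slide 3 the other 2 of 12 months and slide 4 all of 18 months, while the 24-month arrays lay on slides 5, 6 and 7. Slide and age therefore cannot be told apart for 18 and 24 months. Slides 1 and 2 were scanned on day 1, slides 3 and 4 on day 2 and slides 5, 6 and 7 on day 3. Day 3 held all 24-month arrays and no others, so scan day and 24 months cannot be told apart. Scan session groups the days by calendar year, with slides 3 and 4 as session 2 and all other slides as session 1. Only 12 months spans both sessions, with array 2 in session 1 and arrays 3 and 4 in session 2. A fit with session as a fixed block takes its session effect from these arrays. In bulk tissue, fewer cells of a type and less mRNA per cell cannot be told apart.

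Transcripts of the pathway were mostly lower from 12 months on than at 3 and 9 months. Stat5b, Socs2 and 3 of the 4 Igf1 probes dropped between 9 and 12 months, while the downstream Igf1 probe did not. Each value below is the log2 of a probe's signal over its array's 75th percentile, and a difference is older minus younger. Differences were tested with limma across all 25697 measured probes, with p-values adjusted by Benjamini-Hochberg and called at 0.05. Over the 5 ages, 11 of 14 probes passed, against 35.5% of all probes, and they belonged to every gene but Ghr. From 3 to 24 months all 14 probes were lower in mean, and 4 passed (1 each of Stat5a, Stat5b, Cish and Igf1) against 12.3% of all probes in either direction and 8.36% lower. The median difference of the 14 probes was -0.45, against -0.04 for all probes. Between 3 and 9 months 0 of 14 probes passed, against 4.65% of all probes, and 5 had an unadjusted p under 0.05, 3 of them higher at 9 months and 2 lower. The slide entered as a random block gave 3 passing probes, and normexp 0. For the steps between ages, here and below, shares of all probes are not given for these settings or for unadjusted p-values. Such counts therefore cannot be set against the rest of the array.

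The step from 9 to 12 months held 5 passing probes, against 6.21% of all probes in either direction and 3.12% lower. They were those of Stat5b and Socs2 and 3 of Igf1, and all were lower at 12 months. With normexp 1 passed, that of Socs2, and with the slide block 7, again without a share of all probes beside them. The median of the 14 probes was -0.50, against -0.01. Between 12 and 18 months 0 of 14 passed, against 1.21%, and 3 had an unadjusted p under 0.05, all lower at 18 months. With the slide block and with normexp 0 passed here as well. Between 18 and 24 months 4 passed, against 23.9%. Of these, Socs2 and both Igfbp3 probes were higher at 24 months (9.81% of all probes) and Cish was lower (14.1%). In the comparisons over longer spans, 5 of 14 passed for 12 against 3 months and 6 for 18 against 3, all lower at the older age, against 10.3% and 21.9% of all probes in either direction and 5.02% and 11.1% lower. For 18 against 9 and 24 against 9 months 9 passed each, and for 24 against 12 months 4, again all lower. The shares of all probes were 17.5%, 15.8% and 14.1% in either direction and 9.06%, 10.2% and 10.2% lower. When a probe's ages were ordered by their means, 2 gaps between neighbours passed the test, 9 above 24 months for Stat5b and 12 above 24 months for Cish.

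**Figure D1:**
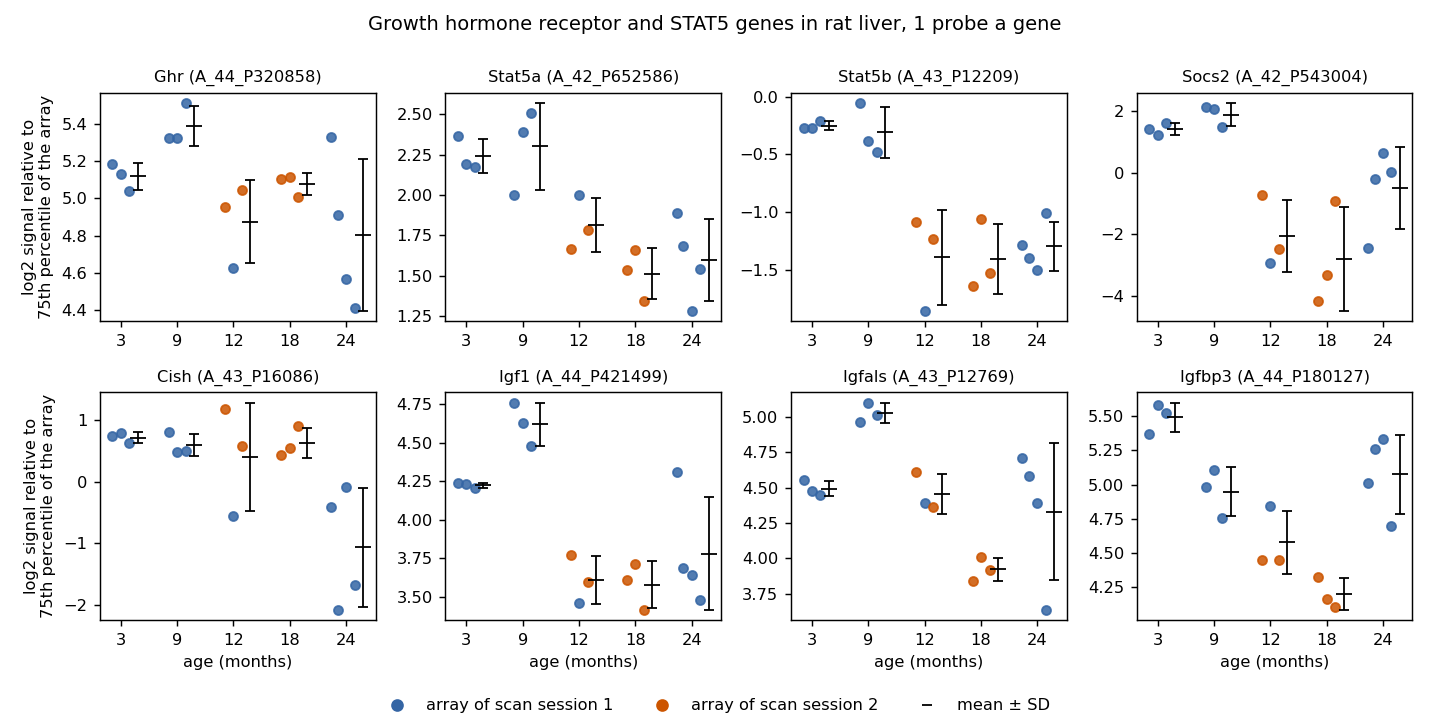
Log2 signal relative to the 75th percentile of the array (vertical axis) against age in months (horizontal axis), for 1 probe of each of the 8 genes. Points are arrays, coloured by scan session, and black bars are the mean ± SD of an age. The Stat5b points lie between -0.48 and -0.06 at 3 and 9 months and at or below -1.01 from 12 months on, and Socs2 drops from 1.24 or more at 3 and 9 months to -0.72 or less at 12 and 18 months.

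**Figure D2:**
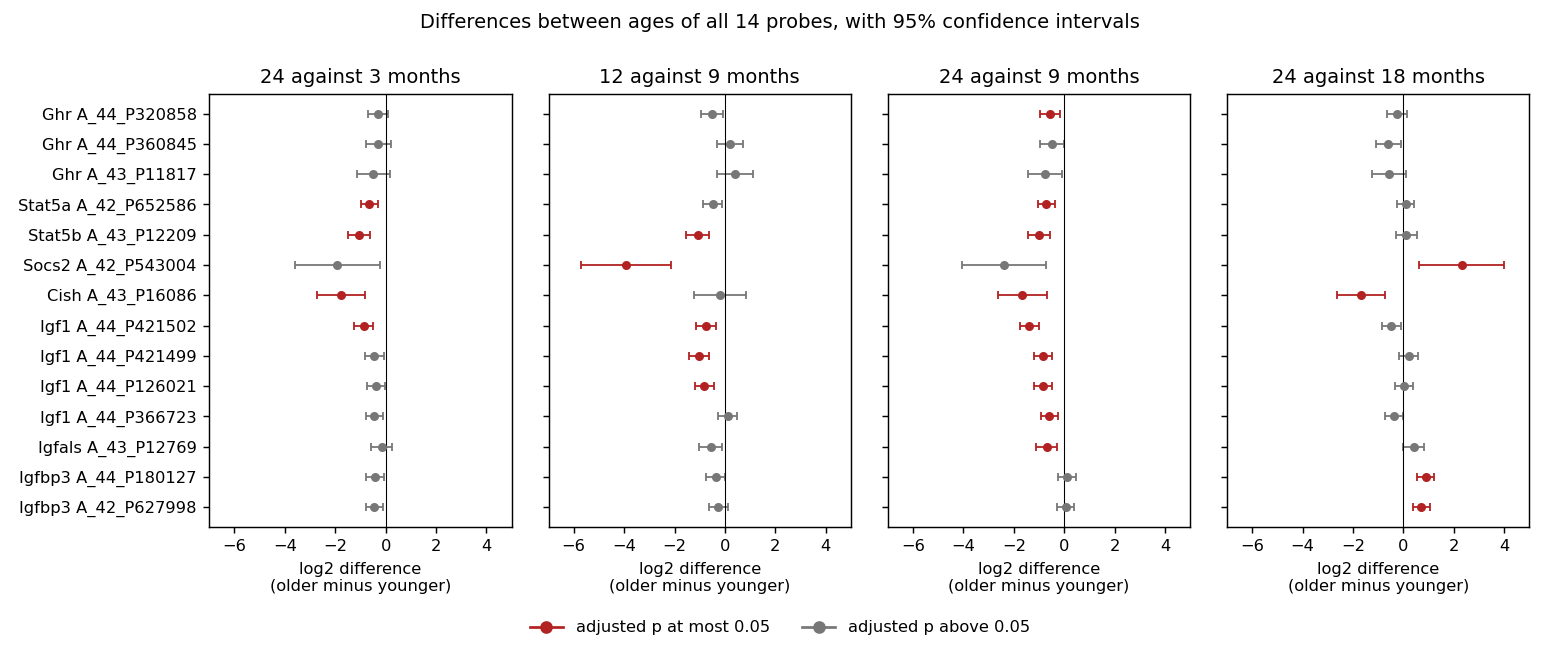
Log2 differences between ages (older minus younger, horizontal axis) for all 14 probes (vertical axis) with 95% confidence intervals, in 4 comparisons. Red points have an adjusted p of at most 0.05 and grey points do not. The red points number 4, 5, 9 and 4, and the 3 of them that lie to the right of 0 are Socs2 and both Igfbp3 probes for 24 against 18 months.

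Most of these calls depended on how the arrays were processed. With normexp background correction in place of the scanner software's own, 8 of the 46 called differences stayed past the threshold, and with slide as a random block 10 did. None changed sign under any setting tried. Both adjusted p-values are given below for part of the called differences, as the normexp and the slide-block values. A call printed without them may also be lost under these settings. The number of all probes called fell too, from 9116 of 25697 over the 5 ages to 1761 with normexp and 5657 with the slide block.

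None of the 3 probes of the receptor gene passed over the 5 ages. The probe in the hormone-binding part of Ghr, A_44_P320858, read 5.13, 5.18 and 5.04 at 3 months, 5.32, 5.33 and 5.51 at 9 months, and 4.62, 4.95 and 5.05 at 12 months. It read 5.11, 5.10 and 5.01 at 18 months and 4.57, 4.91, 4.41 and 5.33 at 24 months. The 9-month arrays were above every array of 3, 12 and 18 months, and at 24 months only array 4 reached them. The adjusted p over the 5 ages was 0.119. The single passing difference of this Ghr probe was 24 against 9 months, -0.58 (SE 0.18, 1.50-fold lower, adjusted p = 0.0473). It failed in all fits with 1 array left out (adjusted p = 0.0512 to 0.155) but those without 12-month array 2 or 24-month array 4. Without 24-month array 3, the lowest, it was -0.45. That array had a summed signal of 420 for 7 neutrophil markers, of 8 listed, against 2.74 to 13.6 on the other 24-month arrays and 1.55 to 26.7 on the younger ones, and its part in the result was not tested. The normexp value was 0.270 and the slide-block value 0.139.

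The Ghr probe in the intracellular part, A_44_P360845, read 0.82 to 0.91 at 3 months, 0.96 to 1.20 at 9 months, 0.91 to 1.47 at 12 months, 0.98 to 1.36 at 18 months, and 0.78, 0.62, -0.16 and 1.03 at 24 months. Its 3-month arrays lay below those of 9, 12 and 18 months and the other ages overlapped, and no difference passed (adjusted p over the 5 ages = 0.119). The most 3′ Ghr probe, A_43_P11817 (chr2:52496746-52496805), read 3.18, 3.29 and 3.05 at 3 months, 3.54, 3.10 and 3.75 at 9 months, 4.33, 3.60 and 3.69 at 12 months, 3.11, 3.55 and 3.11 at 18 months and 2.62, 2.67, 1.90 and 3.57 at 24 months. All 4 arrays of 24 months lay below all 3 of 12 months. The difference of this Ghr probe was -1.18 (SE 0.31, 2.27-fold lower, adjusted p = 0.0234). It failed without 12-month array 2 (0.0747), with normexp (0.208) and with the slide block (0.107).

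Whether the Ghr probes changed unequally was tested on the per-array difference between probes, over all 4640 pairs of probes of 1 gene. From 12 to 24 months A_43_P11817 fell by 1.11 more than A_44_P320858 (adjusted p = 0.0136, against 12.5% of all pairs called), and A_44_P360845 fell by 0.62 more than A_44_P320858 (0.0207). The first of these Ghr differences kept its call in each of the 16 fits with 1 array left out, and was -0.73 without the 3 arrays of lowest correlation (0.0250). It was lost with normexp (0.0758) and the slide block (0.0580). The second was lost without 12-month array 3 or 24-month array 3 (0.0532 and 0.0540), without the 3 arrays (0.0821), with normexp (0.557) and with the slide block (0.186). In rats a shorter mRNA of Ghr encodes the secreted growth hormone binding protein, which shares the hormone-binding part but not the rest.

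Stat5b, the main STAT5 protein of male liver, was higher at 3 and 9 months than at 12, 18 and 24 months. The probe read -0.27, -0.27 and -0.21 at 3 months and -0.39, -0.06 and -0.48 at 9 months. It read -1.86, -1.08 and -1.24 at 12 months, -1.06, -1.64 and -1.53 at 18 months, and -1.50, -1.40, -1.01 and -1.28 at 24 months. Every array of the 3 older ages lay below every array of the 2 younger ones. The means were -0.25 ± 0.04, -0.31 ± 0.22, -1.39 ± 0.41, -1.41 ± 0.31 and -1.30 ± 0.21 (SD, n = 3, 3, 3, 3 and 4). The probe passed over the 5 ages (adjusted p = 0.000762).

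The Stat5b step from 9 to 12 months was -1.08 (SE 0.21), 2.12-fold lower with a 95% interval of 1.55 to 2.91 (adjusted p = 0.0112). On slide 2 alone it was -1.42, a value with no test, since 12 months is there the single array 2. From 3 to 24 months Stat5b was 2.07-fold lower (-1.05, adjusted p = 0.00368), and 12 against 3 (-1.14), 18 against 3 (-1.16), 18 against 9 (-1.10) and 24 against 9 months (-0.99) passed as well. No difference among 12, 18 and 24 months passed, with sizes of 0.11 or less. The slide-block value was 0.00114 for the step and 0.127 for 24 against 3 months, and the normexp values were 0.254 and 0.188. The step failed without 9-month array 2 (0.0503), while the others kept their call with any 1 array left out.

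Stat5a, read by a probe at chr10:89819609-89819668 on the plus strand, was lower at 18 and 24 months than at 3 and 9 months. It read 2.19, 2.36 and 2.18 at 3 months, 2.39, 2.0008 and 2.51 at 9 months, 1.998, 1.66 and 1.78 at 12 months, 1.66, 1.53 and 1.35 at 18 months, and 1.28, 1.69, 1.54 and 1.89 at 24 months. All arrays of 18 and 24 months lay below those of 3 and 9 months, and those of 12 months lay below 3 and 9 months, above 18 months and across 24 months. Stat5a was 1.66-fold lower at 18 than at 3 months (-0.73, SE 0.17, adjusted p = 0.00968) and 1.56-fold lower at 24 than at 3 months (-0.64, SE 0.16, 0.0202). Against 9 months the differences were -0.79 at 18 months (0.00859) and -0.70 at 24 months (0.0108), and neither 12-month difference passed. The 24 against 3 month call was lost without any single 3-month array or 24-month array 1 (0.0532 to 0.0960), and that against 9 months without 9-month array 1 or 3 (at most 0.0581). The normexp values of 24 against 3 and 18 against 3 months were 0.0686 and 0.0450, and the slide-block values 0.173 and 0.220. With scan session as a fixed block Stat5a at 18 months differed by -0.45 from 3 months (0.338) and by -0.51 from 9 months (0.309). Neither call held in that fit, where the session effect came from the 12-month arrays alone.

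Socs2, the feedback inhibitor whose loss makes mice grow large, had the widest range of the 8 genes. Its probe read 1.24, 1.42 and 1.62 at 3 months and 2.08, 2.13 and 1.48 at 9 months. It read -2.93, -0.72 and -2.47 at 12 months, -3.32, -4.16 and -0.91 at 18 months, and 0.64, -0.19, 0.03 and -2.43 at 24 months. All 10 arrays from 12 months on lay below all 6 arrays of 3 and 9 months, and the arrays of these older ages lay far apart from each other. The means were 1.43 ± 0.19, 1.89 ± 0.36, -2.04 ± 1.17, -2.80 ± 1.69 and -0.49 ± 1.34 (SD).

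From 9 to 12 months Socs2 fell 15.3-fold (-3.93, SE 0.83, 95% interval 4.41 to 53.0-fold, adjusted p = 0.0166), and on slide 2 alone, with the single 12-month array 2, the difference was -4.71. At 18 months it was 18.7-fold below 3 months (-4.22, 0.00307) and 25.8-fold below 9 months (-4.69, 0.00251). Of the 3 arrays of 18 months, 2 were well above background, and array 3, the lowest, was not. Without array 3 the differences were -3.54 (0.0176) and -4.01 (0.0146). With normexp these Socs2 differences were -2.75 (0.000667) and -3.14 (0.000547), and the slide-block values were 0.293 and 0.257. At 24 months Socs2 was higher than at 18 months by 2.31 (4.95-fold, 0.0461), and its differences from 3 months (-1.91, 0.134) and 9 months (-2.38, 0.0540) did not pass. With normexp the step from 9 to 12 months was -2.72 (0.00502), and the slide-block value was 0.00527. Without 9-month arrays 1 or 2 or 12-month array 4 the step gave 0.0537 to 0.0594, and the rise to 24 months failed in 12 such fits (0.0539 to 0.207), all but those without 12-month arrays 2 or 3, 18-month array 4 or 24-month array 4. The rise also failed with normexp (0.0841) and the slide block (0.618).

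Cish, which encodes the CIS feedback inhibitor, was lower at 24 months than at every other age. Its probe (chr8:112544581-112544640, plus strand) read 0.78, 0.74 and 0.62 at 3 months, 0.48, 0.80 and 0.50 at 9 months, -0.56, 1.18 and 0.57 at 12 months, 0.54, 0.43 and 0.90 at 18 months, and -0.09, -2.08, -1.68 and -0.41 at 24 months. The 24-month arrays lay below every array of 3, 9 and 18 months, and at 12 months array 2 fell among them. Its means were 0.71 ± 0.09, 0.60 ± 0.18, 0.40 ± 0.88, 0.62 ± 0.25 and -1.06 ± 0.96 (SD). Cish was 3.43-fold lower at 24 than at 3 months (-1.78, SE 0.45, adjusted p = 0.0193), and 24 against 18 months was -1.69 (0.0142), 24 against 9 months -1.66 (0.0226) and 24 against 12 months -1.46 (0.0440). Between 18 and 24 months, then, Cish fell where Socs2 rose in the main fit. Neither call held with normexp, with slide or scan session as a random block, or with session as a fixed block. The arrays of 18 and 24 months shared no slide, scan day or session.

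The Cish call of 24 against 3 months was lost without any single 3-month array (0.0567 to 0.0709), with normexp (0.0661) and with the slide block (0.306). The 24 against 18 month difference was lost without 18-month array 4 (0.0591), and with scan session as a fixed block it was -0.25 (0.848). That block was set by 12-month array 2, where Cish read -0.56, against 12-month arrays 3 and 4, where it read 1.18 and 0.57. In the same fit 24 against 12 months was -0.51, a value with no test, since array 2 alone then sets the 12-month level. The call of 24 against 9 months failed without any single 9-month array or 24-month arrays 2 or 3 (0.0552 to 0.0825). That of 24 against 12 months failed in 13 fits (0.0554 to 0.140), all but those without 12-month array 2 or 24-month arrays 1 or 4. On 24-month arrays 2 and 3, where Cish was lowest, the sums of 10 measured T, NK and B cell markers, of 12 listed, were 27.1 and 27.4, against 10.02 and 9.54 on arrays 1 and 4. Its part in the result was not tested.

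Igf1, the main circulating growth factor made under growth hormone, was highest at 9 months by its 3 upstream probes, and below that level from 12 months on. The exon 2 leader probe A_44_P421499 read 4.23, 4.24 and 4.21 at 3 months, 4.63, 4.76 and 4.48 at 9 months, 3.46, 3.77 and 3.59 at 12 months, 3.71, 3.61 and 3.41 at 18 months, and 3.64, 3.69, 3.48 and 4.31 at 24 months. All 9-month arrays were highest, the 3-month arrays came next, and only 24-month array 4 of the later ages rose above the 3-month values. The exon 1 leader probe A_44_P126021 read 6.18, 6.30 and 6.13 at 3 months, 6.61, 6.69 and 6.59 at 9 months, 5.54, 5.86 and 6.05 at 12 months, 5.96, 5.76 and 5.68 at 18 months, and 5.56, 5.88, 5.56 and 6.21 at 24 months. Every 9-month array was again above all others and 24-month array 4 was within the 3-month range.

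From 9 to 12 months the exon 2 leader probe of Igf1 was 2.02-fold lower (-1.02, SE 0.18, 95% interval 1.54 to 2.66-fold, adjusted p = 0.00818), and the exon 1 leader probe was 1.75-fold lower (-0.81, 0.0193). On slide 2 alone, with 12-month array 2 only, the differences were -1.10 and -1.06. The changes of the leader probes did not differ by a passing amount over the 5 ages (adjusted p = 0.321) or in this step (0.20, SE 0.12, 0.423), and the 2 probes correlated at 0.94 over the 16 arrays. At 24 months both remained below 9 months, by -0.84 (0.00543) and -0.83 (0.00483), and their differences from 3 months did not pass (-0.45, 0.116 and -0.40, 0.146). The exon 2 leader probe also passed for 12 against 3 (-0.62, 0.0487) and 18 against 3 months (-0.65, 0.0234), calls lost in 13 and 5 fits with 1 array left out (0.0559 to 0.131 and 0.0589 to 0.0920). The exon 2 call of the step held with any 1 array left out, the exon 1 call was lost without any single 9-month array (0.0581 to 0.0643), and the normexp values were 0.139 and 0.340. The slide-block values of the step were 0.00132 and 0.00222.

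The Igf1 probe upstream of the exon 2 junction, A_44_P421502, was printed 10 times on each array, with a median SD of 0.110 between its spots. All 60 of its bases lie before the RefSeq start of leader exon 2, at -71 to -12. Its unscaled signal was 70 to 270, against 1878 to 7010 for the exon 2 leader probe. Scaled to the array, A_44_P421502 read -0.60, -0.65 and -0.60 at 3 months, -0.16, 0.06 and -0.23 at 9 months, -0.96, -0.50 and -1.15 at 12 months, -1.12, -0.94 and -0.94 at 18 months, and -1.17, -1.41, -1.90 and -1.48 at 24 months. All 24-month arrays lay below every other array of this probe. It fell 2.60-fold from 9 to 24 months (-1.38, SE 0.18, adjusted p = 0.000360) and 1.83-fold from 3 to 24 months (-0.87, 0.00568), and both calls held with any 1 array left out. From 9 to 12 months it fell by 0.76 (0.0333), a call lost without any single 3-month or 9-month array or 12-month arrays 2 or 4 (0.0518 to 0.116). The 24 against 9 month difference of this Igf1 probe also passed with normexp, where it was -0.72 (0.0416), and with the slide block (0.00960), and that against 3 months did not (0.446 and 0.209).

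The downstream probe of Igf1, A_44_P366723, differed little between 9 and 12 months once scaled to the array. It read 9.44, 9.48 and 9.21 at 3 months, 9.52, 9.49 and 9.54 at 9 months, 9.77, 9.51 and 9.59 at 12 months, 9.33, 9.33 and 9.27 at 18 months, and 8.83, 8.94, 8.57 and 9.38 at 24 months. The 9-month and 12-month arrays overlapped, and at 24 months only array 4 reached the values of the other ages. Its 12 against 9 month difference was 0.11 (0.757). Relative to the rest of the array it fell by 0.69 from 12 to 24 months (1.62-fold, adjusted p = 0.0121) and fell by 0.58 from 9 to 24 months (0.0238). Before scaling, the signal of this Igf1 probe was 177880 to 192010 at 9 months, 147700 to 158590 at 12 months and 130570 to 163160 at 24 months, so unscaled it was lower at 12 than at 9 months and overlapped between 12 and 24 months. The 75th percentile that divides it was 239 to 262 at 9 months, 171 to 217 at 12 months, and 357, 325, 412 and 195 on the 4 arrays of 24 months. With quantile normalization the 2 falls were -0.39 (0.0246) and -0.34 (0.0414). The first of these calls held with any 1 array left out and the second was lost without any single 9-month array or 24-month arrays 1 or 3 (0.0510 to 0.0748), and neither held with normexp (0.290 and 0.146) or the slide block (0.0871 and 0.160).

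The unequal change of these Igf1 probes was tested on their difference within each array, from which the 75th percentile cancels. Over the 16 arrays the downstream probe read 130570 to 192010 unscaled, against 1878 to 7010 for the exon 2 leader probe. Whether the signal of so bright a probe followed its mRNA in proportion was not tested. From 9 to 12 months the downstream probe and the exon 2 leader probe parted by 1.12 (SE 0.14, adjusted p = 0.00525, against 0.841% of all pairs called), and the downstream and exon 1 leader probes by 0.92 (0.0237). On slide 2 alone, with 12-month array 2 only, these were 1.34 and 1.30. From 12 to 24 months the downstream probe then fell by 0.87 more than the exon 2 leader probe (0.00256, against 12.5% of all pairs called). The first and last of these held in all 16 fits with 1 array left out and with the slide block (0.000979 and 0.0394), and the first missed the threshold with normexp (0.99, 0.0908) while the last passed (0.0309). With quantile normalization the last was -0.54 (0.0286). The exon 1 pair was lost without any single 9-month array (0.0746 to 0.0919) and with normexp (0.177).

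**Figure D3:**
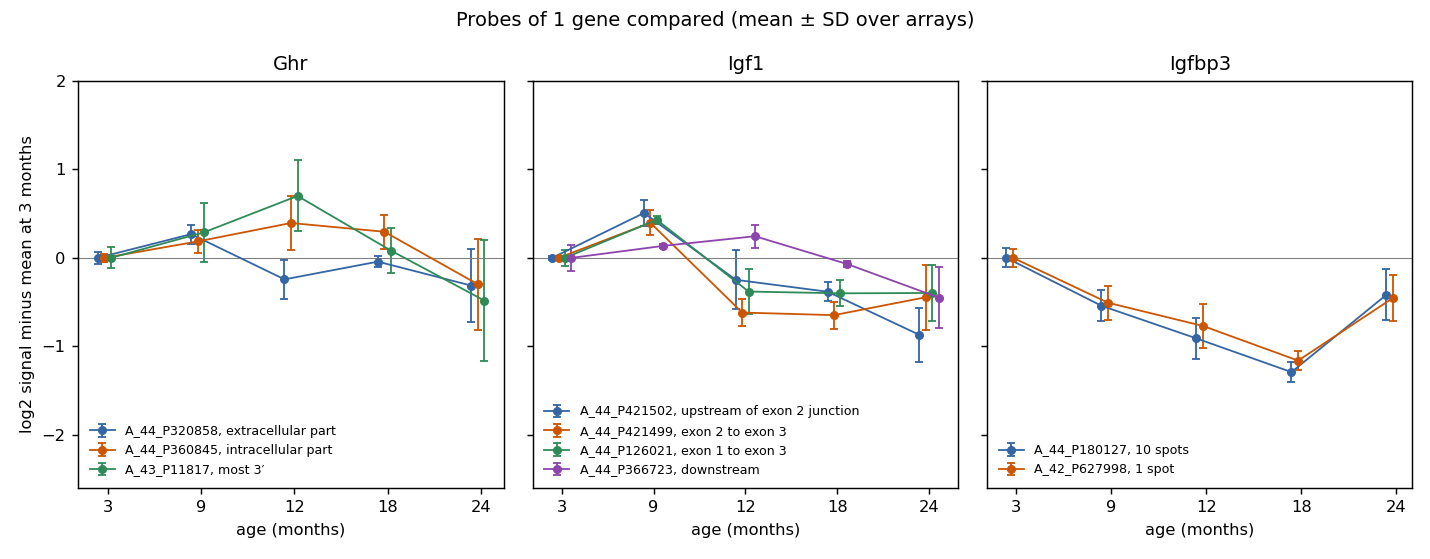
Mean log2 signal minus the probe's own mean at 3 months (vertical axis) against age in months (horizontal axis) for the probes of Ghr, Igf1 and Igfbp3. Bars are the SD over the arrays of an age. The 3 upstream Igf1 probes drop between 9 and 12 months while the downstream one, scaled to the array, does not, and both Igfbp3 probes fall to 18 months and are higher at 24 months.

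Igfals, which encodes the acid-labile subunit made by hepatocytes, had its highest mean at 9 months and its lowest at 18 months. Its probe (chr10:14130378-14130437, plus strand) read 4.48, 4.55 and 4.45 at 3 months, 5.10, 4.97 and 5.01 at 9 months, 4.39, 4.61 and 4.36 at 12 months, 4.01, 3.84 and 3.92 at 18 months, and 4.39, 4.58, 3.63 and 4.71 at 24 months. Every 9-month array was above, and every 18-month array below, all arrays of 3 and 12 months, and 24-month array 3 was the lowest of all. From 9 to 18 months Igfals fell 2.15-fold (-1.10, SE 0.21, adjusted p = 0.00396), a call that held with any 1 array left out. From 9 to 24 months it was 1.62-fold lower (-0.70, 0.0296), and without 24-month array 3, which had the lowest hepatocyte marker sum (3364 against 4351 to 5599 on the other 24-month arrays), the difference was -0.47 (0.0192). The 9 against 3 month difference, 0.53, did not pass (0.196). The 24 against 9 month call was lost without any single 9-month array (0.0693 to 0.101), and the normexp and slide-block values of 18 against 9 months were 0.219 and 0.178.

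Igfbp3, the main carrier protein of IGF1 in blood, was highest at 3 months, fell to 18 months and was higher again at 24 months. In liver it is made mostly by non-parenchymal cells. The probe A_44_P180127, at chr14:87961611-87962505 on the minus strand and printed 10 times (median spot SD 0.0664), read 5.58, 5.37 and 5.52 at 3 months, 5.11, 4.98 and 4.76 at 9 months, 4.85, 4.45 and 4.45 at 12 months, 4.17, 4.33 and 4.11 at 18 months, and 5.33, 5.26, 4.70 and 5.01 at 24 months. The 3-month arrays were highest and the 18-month arrays lowest with no overlap with any other age. The second probe, A_42_P627998 (chr14:87960494-87960553), ran in parallel, with a correlation of 0.98 over the 16 arrays and means of 6.61 ± 0.10, 6.10 ± 0.19, 5.84 ± 0.25, 5.45 ± 0.11 and 6.16 ± 0.26 (SD).

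From 3 to 18 months Igfbp3 fell 2.45-fold by the first probe (-1.29, SE 0.18, 95% interval 1.89 to 3.18-fold, adjusted p = 0.000261) and by 1.16 on the log2 scale by the second (0.000470). From 18 to 24 months it rose 1.83-fold by the first (0.88, 0.00160) and by 0.71 by the second (0.00581), and all of these held with any 1 array left out. At 12 months it was below 3 months, by -0.91 (0.00660) and -0.77 (0.0139), calls lost with normexp (0.164 and 0.279), the slide block (0.0519 and 0.0736) and scan session as a fixed block (0.0534 and 0.117). Its 24-month differences from 3 months did not pass (-0.42, 0.120 and -0.45, 0.0867). With normexp the fall to 18 months gave 0.0289 and 0.0593 and the rise 0.337 and 0.496, and with the slide block all 4 missed the threshold (0.0745 to 0.252). With scan session as a fixed block the rise of Igfbp3 by the first probe was 0.48 (0.270), its fall from 3 to 18 months was -0.89 (0.0590) and -0.74 (0.0955), and over the 5 ages the probes gave 0.0507 and 0.0575. The session block was again set by 12-month array 2 against 12-month arrays 3 and 4. The summed signal of the 10 measured stellate cell and fibroblast markers, of 12 listed, moved alongside Igfbp3. It was 44.5 to 51.6 at 3 months, 30.2 to 35.4 at 9 months, 29.1 to 37.0 at 12 months, 20.4 to 23.2 at 18 months and 28.2 to 38.7 at 24 months. In the same order, the sum of 11 measured Kupffer cell and macrophage markers was 333 to 347, 280 to 292, 251 to 327, 231 to 286 and 317 to 439. That of 11 measured liver endothelial markers was 96.07 to 115.5, 94.25 to 101.6, 100.6 to 117.2, 101.7 to 118.8 and 93.83 to 125.1, without such a fall to 18 months. The part of these sums in the Igfbp3 result was not tested.

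The arrays of an age lay closer together at some ages than at others. From the youngest to the oldest age, the median SD of the 14 probes was 0.09, 0.17, 0.25, 0.15 and 0.35. The largest SD at each of 12, 18 and 24 months was that of Socs2, at 1.17, 1.69 and 1.34. The arrays of 9 against 3 months did not overlap for 9 of 14 probes, against 40.6% of all probes, and those of 12 against 9 months for 8 (25.8%). For 24 against 3 months 7 did not overlap (28.3%).

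Around the receptor, 25 of 26 listed genes of growth hormone signal transduction were measured, 1 probe a gene. Of these, 9 passed over the 5 ages, against 36.9% of all 21487 genes. The lists hold none of the 8 genes above. From 3 to 24 months 1 was lower and 0 were higher, against 8.94% and 4.1% of all genes, and the median was -0.13. The one was Pias3, an inhibitor of STAT proteins, at -0.64 (adjusted p = 0.0352), and with normexp or the slide block 0 genes of this list passed. The adaptor Irs1 passed over the 5 ages (0.00456) and fell from 18 to 24 months by 0.77 (0.00210). Ptpn6, the phosphatase SHP-1, was lower at 18 than at 3 months (-0.82, 0.00249) and rose to 24 months by 0.64 (0.00609), and the adaptor Sh2b2 was higher at 18 than at 3 months (0.71, 0.00166). Jak2, the kinase bound to the receptor and named here after its values were seen, was lower at 18 than at 3 months (-0.67, 0.0133), while its 24 against 3 month difference was -0.14 (0.633). From 9 to 12 months the adaptor gene Irs2, named after its values were seen, rose by 1.46 (0.0388). Ptpn11, the phosphatase SHP-2, differed by 0.33 from 3 to 24 months (0.113).

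Of 19 listed genes of the IGF system other than the members, 13 were measured. Over the 5 ages 4 of these passed, against 36.9% of all genes. From 3 to 24 months Igf2r, the receptor that clears IGF2, rose by 0.62 (0.0107), a call lost with normexp and with the slide block. Igf2bp2, an RNA-binding protein, was lower (0.00150), although its probe lay well above background on 6 of the 16 arrays and no fold is given for it. The secreted protease Htra1 (-0.49, 0.105) and the adaptor Grb10 (-1.24, 0.116) did not pass. Igfbp1, an IGF carrier that insulin represses, had means of 5.30, 1.05, 4.20, 3.96 and 5.31 from 3 to 24 months. It was lowest at 9 months, where the upstream Igf1 probes and Igfals were highest, and rose by 3.15 from 9 to 12 months (0.00153).

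Of 25 listed liver transcription factors and targets that respond to growth hormone, 24 were measured. Over the 5 ages 10 of these passed, against 36.9% of all genes. From 9 to 12 months 4 rose and 2 fell, against 3.18% and 3.08% of all genes, while normexp left 2 and 0 and the slide block 4 and 4. Egr1 rose by 2.82 (0.00784), Junb by 1.87 (0.0159), the gluconeogenic enzyme gene Pck1 by 1.17 (0.00516) and the fatty acid receptor gene Ppara by 1.11 (0.0202). Nr1h4, the bile acid receptor FXR, fell by 0.79 (0.00401), and Onecut1, named after its values were seen, fell by 2.43 (0.0402). From 3 to 24 months Ppara rose by 0.85 (0.0285), a call lost with normexp and with the slide block, and Hnf4a (0.35, 0.114), Serpina3c (-0.71, 0.132) and Foxa2 (-0.88, 0.150) did not pass.

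Genes that male or female growth hormone rhythms favour in rat liver moved in both directions. Of 18 male-biased genes, all measured, 3 were lower and 1 higher at 24 than at 3 months, against 8.94% and 4.1% of all genes. The median of this list was -0.73, against -0.04 for all genes. The lower ones were the urinary carrier gene Obp3 (-3.57, 0.0376), Cyp2c13 (-0.89, 0.0167) and Rup2 (-0.84, 0.0163), and the trypsin inhibitor gene Spink3 was higher (0.97, 0.0268). Cyp7b1 was lower at 18 than at 3 months (-2.10, 0.00782). Of 19 measured female-biased genes, of 20 listed, 3 were higher and 3 lower, against 4.1% and 8.94% of all genes. Their median was 0.57, and 0.03 with the slide block. The sulfotransferase genes Sult2a6 (0.60, 0.0268) and Sult2a2 (1.94, 0.00244) and the transporter gene Abcb1b (3.04, 0.000311) were higher. The steroid 5-alpha-reductase gene Srd5a1 (-1.50, 0.00878), Cyp3a9 (-1.23, 0.00489) and Cyp2c7 (-0.84, 0.0102) were lower. With normexp 0 genes of the male-biased list and 2 higher and 2 lower of the female-biased list passed, and with the slide block 0 and 1.

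**Figure D4:**
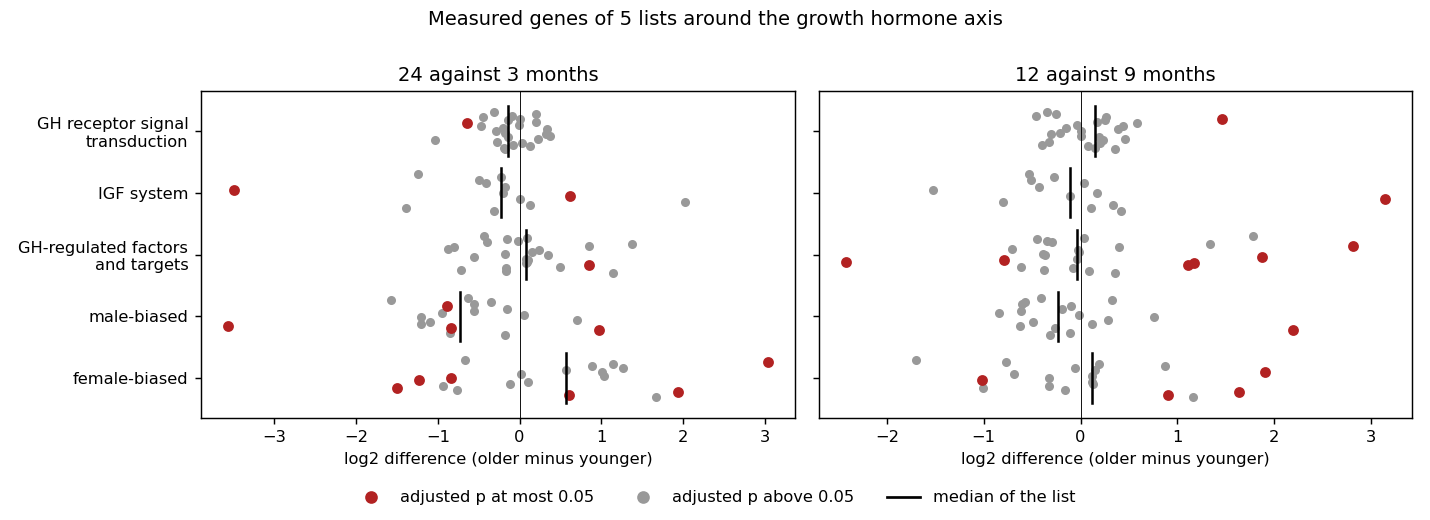
Log2 differences (older minus younger, horizontal axis) of the measured genes of 5 lists (vertical axis) for 24 against 3 and for 12 against 9 months. Red points have an adjusted p of at most 0.05, and black lines are list medians. For 24 against 3 months the median of the male-biased list is -0.73 and that of the female-biased list 0.57 (0.03 with the slide block), while those of the other 3 lists lie between -0.23 and 0.08 (the latter, of the factors and targets, is -0.17 with normexp and -0.01 with the slide block).

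The genes whose profile was most like that of each member were taken by Pearson correlation over the 16 arrays, among 9375 genes above background on all of them. These correlations describe arrays that share age, slide, tissue makeup and 1 scaling factor per array, and carry no p. For Stat5b the closest were Polg (0.95), Pld1 (0.95) and Rarres1 (0.94), and Homer1 ran most opposite (-0.96). For Socs2 they were Rasl11a (0.93), Ankrd50 (0.93) and Map3k14 (0.92), with Abhd13 most opposite (-0.94). For the downstream probe of Igf1 they were Rps21 (0.99) and the plasma protein genes Ambp (0.96) and C3 (0.95), with Abcc3 most opposite (-0.96). For Igfbp3 they were Sod3 (0.94), Nenf (0.93) and Gna14 (0.92), with Pitx1 most opposite (-0.95). Stat5a was most like Bmp1 (0.94), Slc45a3 (0.93) and Mocos (0.93), and least like Gde1 (-0.91). Cish was most like Slc22a8 (0.94), Notch1 (0.93) and Sdr9c7 (0.93), and least like Hsd17b7 (-0.89). Igfals was most like Cyp4f6 (0.95), Nrep (0.92) and Mif (0.92), and least like Srd5a2 (-0.86). Ghr, by its hormone-binding probe, was most like Mal2 (0.92), Atp5pb (0.91) and Cep19 (0.90), and least like Cpne4 (-0.88). The 8 genes themselves were left out of this ranking, so it does not say how alike they were to one another.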

How the data were processed

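RNA of 16 liver samples was read on one-colour arrays, grouped by the stated age. Per the file headers, the processed signal, mean signal and local background columns hold intensity values made with Agilent Feature Extraction 10.7.3.1 with no normalization between arrays, while 0 or 1 marks for background and outliers (unit other) come from the same software. The deposited series table holds log2 values whose normalization between arrays is not stated (column medians 4.92 to 4.94, correlation with the scanner values at least 0.999). It served as an alternative.

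The processed signal was taken to log2 minus the 75th percentile of each array (171 to 412 intensity units). Spots flagged as outliers were set to missing and spots of a probe averaged. A probe was kept if well above background, in over 0.5 of its spots, on every array of 1 age or more (25697 of 41012 probes). Through their accession 18019 probes were named from RefSeq, and 22993 kept the name in the file. A model with 1 mean per age was fitted to all 16 arrays with limma 3.58.1 in R 4.3.3, two-sided, with Benjamini-Hochberg adjustment over all kept probes and a threshold of 0.05. Lists used each gene's kept probe of highest mean. The procedure was tested on simulated data with independent noise per array and no slide effect, so that test says nothing on slide differences. Plots used matplotlib 3.10.9.

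Probe positions are those of the file headers (rn4), and promoters those of RefSeq (GRCr8). Members and lists were chosen with earlier results of these data known. Named list genes are up to 4 per list with the smallest adjusted p over the 5 ages and up to 4 for 24 against 3 months, and Cyp2c7 completes a count. Marker sums are linear signals over the 75th percentile. Alternatives were another normalization, background correction, source, filter, unit, block, subset of arrays and fold. Fits within a scan day or session, session as a random block, the test of probe pairs and the settings tried on it, and the lists under other scalings and the slide block were added after seeing the data.

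Precision is limited by the number of arrays. Replicate numbers did not pair the samples, since 2 of 25 pairs of arrays with the same number had deviations that correlated above 0.1 (range -0.37 to 0.19).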

Additional observations from a re-analysis of the deposited data

How the results depend on the processing

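The 46 called member differences gave 1353 values under the alternatives, of which 1062 kept the call, 291 lost it and 0 changed sign. Calls were kept in 44 of 46 cases with quantile normalization or the series table, 39 with no filter, 33 with the replicate block, 31 with the 2 compared ages alone, 29 with scan session as a fixed block, 10 with slide as a random block (consensus correlation 0.69) and 8 with normexp. The causes were not tested. With replicate number as a block, which is not a pairing here, 6002 probes and 11 member probes passed over the 5 ages, and 2286 probes for 24 against 3 months. Member probes passing under it were 3 for 24 against 3 months, 2 for 12 against 9 and 3 for 24 against 18.

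Over the 5 ages, probes passing numbered 1761 with normexp, 5657 with the slide block and 14427 without the 3 arrays of lowest correlation, against 9116. Member probes passing numbered 2 with normexp, and 7 with a gene read by its brightest probe or by the mean of its probes, where 8 genes were tested. For 24 against 3 months the probes passing numbered 532 with normexp, 2092 with the filter on all arrays, 312 with the slide block, 1701 with a fold of at least 2 and 5929 without the 3 arrays, against 3173. Member probes passing there were 0 with normexp and the slide block, 2 with the compared ages alone or a fold of at least 2, and 8 without the 3 arrays, against 4. For 9 against 3 months, with 0 in the main setting, 1 member probe passed with quantile normalization and with the series table, 3 within slide 1 (where 9 months is 1 array, assumed to vary like those of 3 months) and with the slide as a random block, 4 with slide as a fixed block, 6 with the compared ages alone and 5 without the 3 arrays. For 12 against 9 months, against 5, the numbers were 1 with normexp, 2 with the brightest probe, the compared ages alone or the replicate block, 3 with the mean of probes or a fold of at least 2, 10 with slide as a fixed block and 9 without the 3 arrays. For 18 against 12 months 1 passed without the 3 arrays, against 0. For 24 against 18 months, against 4, there were 0 with normexp and with slide or session as a random block or session as a fixed block, 2 with a fold of at least 2 and 9 without the 3 arrays.

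With 1 array left out, the counts ran from 7023 to 11271 for all probes and 9 to 14 for member probes over the 5 ages, and from 1717 to 4339 and 2 to 8 for 24 against 3 months. They ran from 0 to 2 for 9 against 3 months, 1 to 6 for 12 against 9, 0 to 1 for 18 against 12 and 3 to 8 for 24 against 18.

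Of the lists over the 5 ages, normexp left 1 gene of signal transduction (9 before), 1 of the IGF system (4), 4 of the factors and targets (10), 3 male-biased (6) and 6 female-biased (10) past the threshold, and the slide block left 2 of the IGF system, 3 male-biased and 6 female-biased. Normexp moved the median of all probes from -0.04 to 0.13 for 24 against 3 months. Under it the difference between Igf1 probes A_44_P421499 and A_44_P421502 for 24 against 18 months changed from 0.69 (0.0276) to -0.0044 (0.996). Signal over background limits Socs2 most, since its lowest value (-4.16) was not well above background.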
